A study of Drosophila melanogaster with 12 samples.

Results

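The mitochondrial respiratory chain is built from 2 genomes, and the genes described here are those of its subunits that lie in the nucleus of Drosophila melanogaster. Members were rows of the linear RNA table whose gene name begins with ND-, COX and a digit, UQCR-, ATPsyn or Sdh with A to D, together with blw, RFeSP, Cyt-c1 and Cyt-c-p. The rule uses names and no measured value. It found 65 genes of 5954, with 121 of the 10162 listed transcripts: 33 genes of complex I, 4 of complex II, 8 of complex III, 7 of complex IV and 12 of complex V, and the gene of cytochrome c.

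Stage 14 follicles, the mature egg chambers, were taken from ovaries of Oregon R flies, a wild-type stock, and labelled day 2 or day 12. The linear RNA comparison rests on 6 libraries, 3 per day, numbered as biological replicates. No other allele or treatment is labelled, and the labels do not say what the day count starts from, how old the females were or how many were pooled. The authors deposited 1 mean per day and transcript, so every value below is such a mean, or a sum of such means, with no spread between libraries. The depth of the libraries is unknown. In the tissue check, all 4 oocyte markers were listed, such as osk at 707 on day 2 and 845 on day 12. Of 6 follicle cell markers 2 were listed: Cp15, a chorion protein, was at 254 and 20.8, and Ilp8, a relaxin-like hormone, at 50.1 and 80.1. None of 6 muscle, 3 hemocyte and 3 neuron markers was listed. The lower Cp15 moves with the day, and its part in the results below was not tested. In such bulk samples, fewer cells of a type and less RNA per cell cannot be told apart.

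In oxidative phosphorylation, electrons from NADH enter at complex I and those from succinate at complex II. They pass through ubiquinone to complex III, and cytochrome c carries them to complex IV, which reduces oxygen. Complexes I, III and IV pump protons, and complex V, the ATP synthase, uses the proton gradient to make ATP. Nuclear subunits are made in the cytosol and imported, and in complexes I, III, IV and V they join subunits made from the mitochondrial genome; complex II is all nuclear. In Drosophila, the oocyte is loaded with mitochondria for the embryo, and its mitochondria enter a state of low respiration as the oocyte matures.

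The messages of the respiratory chain were abundant at both days, and their levels spanned a wide range within a complex. The notes of the submitters name StringTie, whose abundances are scaled by transcript length; that the deposited values are so scaled is not stated, and levels of different genes are set side by side on that reading. Summed over its listed transcripts, a member was at a median of 129 on either day (129.2 at day 2 and 129.5 at day 12). By the mean of both days, 46 of the 65 genes were above percentile 75 of all listed genes and 26 above percentile 90. Together the members took 1.87% of the listed total at day 2 and 1.82% at day 12.

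The catalytic subunit ATPsynbeta was the most abundant member, at 1000.1 at day 2 and 921 at day 12. The rotor ring subunit ATPsynC followed at 556 and 625, ATPsynG of the membrane part at 519 and 539.7, and ND-MLRQ at 520.01 and 513. ND-MLRQ is named as a complex I subunit, while its mammalian counterpart is found in complex IV. The least abundant member was ND-75, the largest complex I subunit, at 23.5 and 14.4, followed by ND-ASHI of the membrane arm at 18.2 and 21.6. In complexes I, III, IV and V, levels thus differed more between subunits than those of any member did between days. The highest mean was 27.2 times the lowest in complex I, 33.4 times in complex V, 9.26 times in complex IV and 3.48 times in complex III. In complex II the span was 1.77-fold. The median of the genes' means was 66.6 in complex II, 102 in complex I, 198 in complex III, 243 in complex IV and 251 in complex V.

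**Figure D1:**
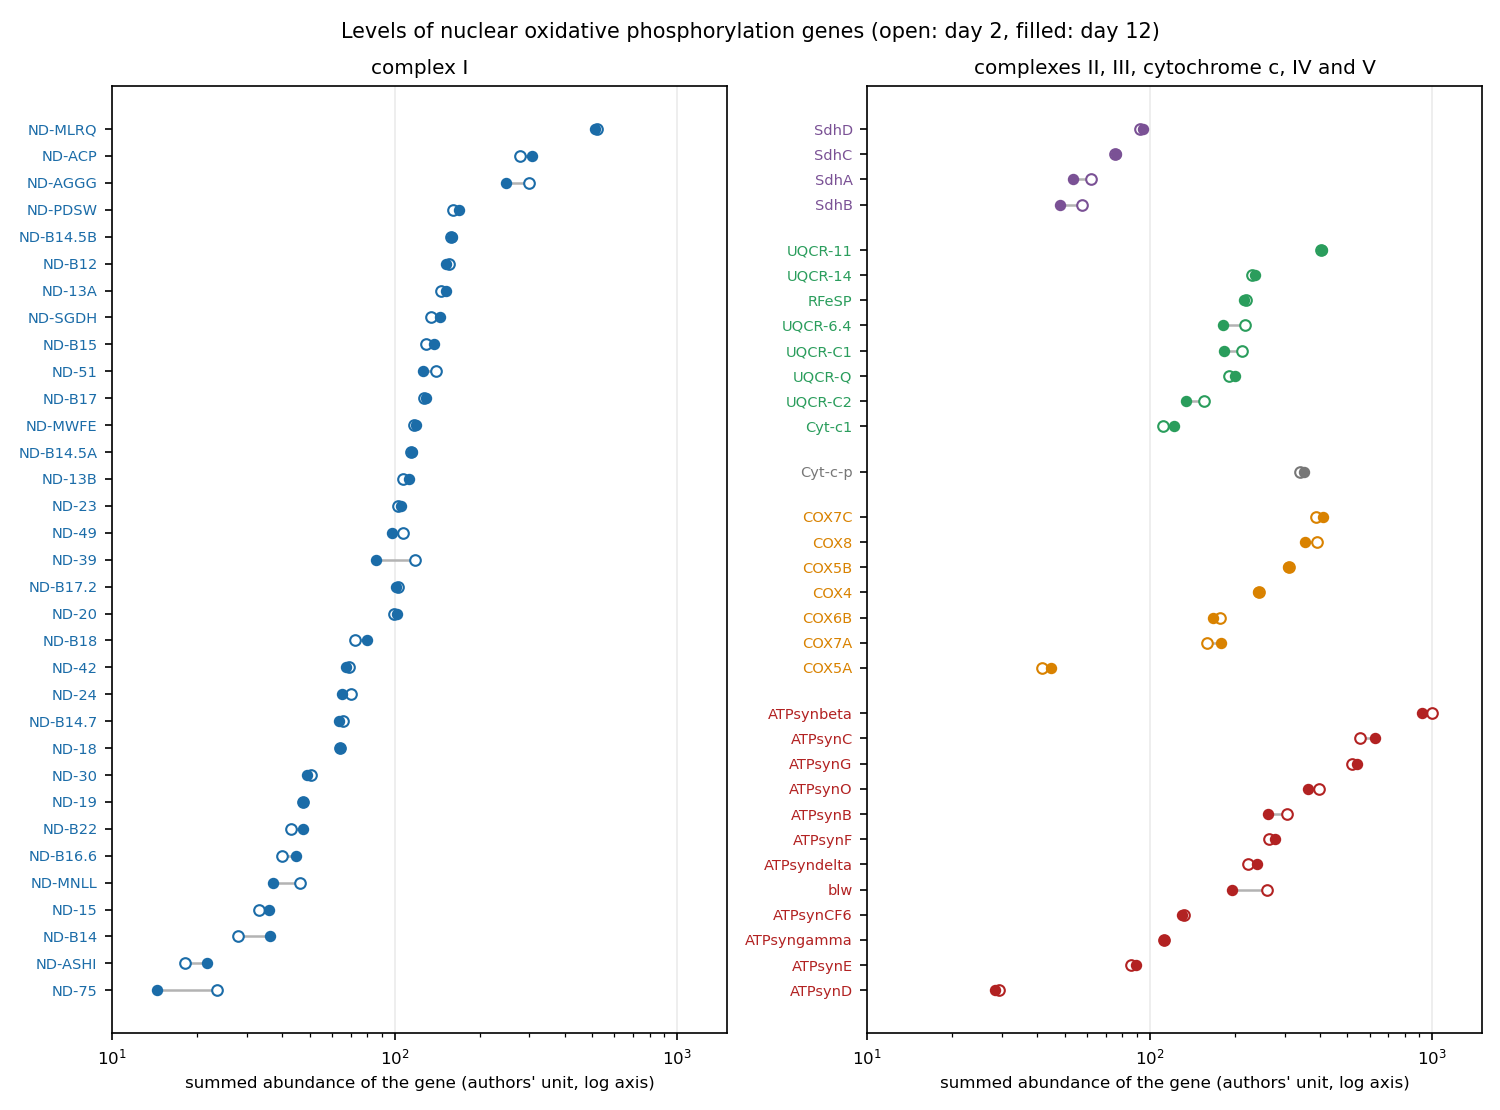
Summed abundance of each of the 65 genes in the authors' unit (horizontal log axis) at day 2 (open points) and day 12 (filled points), sorted within each complex by the mean of both days; each point is 1 mean over 3 libraries and has no error bar. Most pairs of points lie close together, and ND-75, ND-39, ND-B14 and blw have the widest gaps.

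Between day 2 and day 12 most members were nearly level, as were most genes of the table. The log2 change of the summed value, day 12 over day 2, was within 0.25 of 0 for 56 of 65 members and for 78.9% of all genes. It was so for 3806 of the 4377 other genes in the abundance range of the members. It was higher at day 12 for 34 and lower for 31, with a median of 0.01. Over all 5954 genes the median was 0.04, with 58.5% higher and 41.5% lower. Among the 4377 other genes in the abundance range of the members it was 0.06, with 64.3% higher and 35.7% lower. When changes were taken relative to the median of all genes, 23 members lay above it and 42 below. Changes of at least 0.5 in size were found in 1 member, ND-75, against 7.36% of all genes and 133 of the 4377 other genes in that abundance range.

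None of the 121 member transcripts had an adjusted p under 0.05 according to the authors' deposited table, where 0.177% of all transcripts did. The lowest was 0.0890, for ND-75. At an unadjusted p under 0.05 there were 14 transcripts of 14 genes, of which 11 had the lower mean at day 12 and 3 the higher. Of all transcripts, 16% were at that threshold, 6.56% with the lower mean at day 12 and 9.47% with the higher. Of all genes, 25.3% had such a transcript, against 21.5% of the members. The number is thus no larger than in the whole table, and among the members the split leans to lower means while in the whole table it leans to higher ones. The difference between these splits was not tested, and the p-values measure only the spread between these libraries.

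Complex I oxidises NADH through 7 conserved nuclear core subunits that hold its flavin and iron-sulfur clusters, and 5 of these 7 were lower at day 12. ND-75, which carries iron-sulfur clusters of the NADH-oxidising module, went from 23.5 to 14.4, a 1.63-fold lower level (log2 change -0.70). Its unadjusted p was 0.000697 and its adjusted p 0.0890 according to the authors' deposited table. ND-75 spans bases 8248651 to 8251687 of X (build dm6), minus strand, and its listed transcript has 6 exons and 2571 nt.

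ND-51, the subunit that binds NADH and flavin, went from 139.96 to 126 (log2 change -0.15), with an unadjusted p of 0.0123 according to the authors' deposited table. ND-24, the iron-sulfur protein beside it, was at 70.2 and 65.2 and did not pass at an unadjusted p under 0.05. All 3 core subunits of the NADH-oxidising module therefore had the lower mean at day 12, with log2 changes of -0.70, -0.15 and -0.11.

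The other 4 core subunits lie on the path from there to ubiquinone, and none had a log2 change beyond -0.13. ND-49, which helps to form the quinone site, was at 107 and 97.8, and ND-30 at 50.4 and 49.1. ND-20, its partner at the quinone site, was at 99.4 and 102, and the iron-sulfur protein ND-23 at 103 and 105. The median log2 change was -0.11 over the 7 core genes and 0.03 over the 24 accessory genes of both arms. No test of this difference was made.

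Accessory subunits surround the core and are needed for its assembly and stability. In the matrix arm, 5 of 7 were higher at day 12 and 2 lower. ND-39, at the junction of the arms, went from 118 to 86.0, a 1.37-fold lower level (log2 change -0.46). Its unadjusted p was 0.00169 and its adjusted p 0.114 according to the authors' deposited table. The gene spans bases 20492082 to 20497084 of 3L, plus strand, and shares 2840 bp of its span with ZnT77C of the opposite strand, which was at 5.43 and 5.95; the part of this overlap in the result was not tested.

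ND-B14, also of the matrix arm, had the largest change upward of all members, from 27.9 to 36.3 (log2 change 0.38), with an unadjusted p of 0.309 according to the authors' deposited table. This higher mean did not pass. The other 5 genes of the arm had log2 changes between -0.01, for ND-B17.2, and 0.06, for ND-13B: ND-18 was at 64.3 on both days and ND-13A at 146 and 153.

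In the membrane arm, 11 of 17 accessory genes were higher and 6 lower, with a median log2 change of 0.03. ND-MNLL, whose main product is the shortest of all members at 56 residues, went from 46.2 to 37.3 in sum (log2 change -0.31). Its main transcript was at 39.7 and 32.7 (unadjusted p = 0.00121 according to the authors' deposited table). ND-MNLL and CG45089 share the same 746 bp of the X chromosome on the same strand, and CG45089 was listed at 3.27 and 3.76, so reads of these genes may not have been separable. ND-B18 was higher, at 72.6 and 79.8, with an unadjusted p of 0.0224 according to the authors' deposited table.

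For ND-42, ND-B17 and ND-20 a low p went along with a small difference. ND-42 was at 69.0 and 67.1 (unadjusted p = 0.0394) and ND-B17 at 127 and 129 (unadjusted p = 0.0463) according to the authors' deposited table. One of the 2 transcripts of ND-20 went from 43.7 to 49.4 (unadjusted p = 0.0472 there), while the other went from 55.7 to 52.3. The lowest p of the members was that of ND-75, which also had the largest change. A relation between p and the size of the difference was not computed over the members. The sources used here do not name the test that gave the p-values.

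Among the other membrane arm genes, ND-AGGG and ND-ASHI, described below with their transcripts, had log2 changes of -0.27 and 0.25. The rest, ND-MNLL aside, lay between -0.05, for ND-B14.7, and 0.16, for ND-B16.6, whose mammalian counterpart is GRIM-19. ND-B16.6 was at 40.004 and 44.6, ND-B22 at 43.1 and 47.2, and ND-15 at 33.2 and 35.9. A transcript that the authors assembled held 79.2% of the value of ND-15 at day 2, and ND-B22 was listed only as such a transcript. Within its span on the same strand ND-15 holds Gs1, at 374 and 391, and CG11454, at 51.9 and 58.5. The part of this overlap in the values of ND-15 was not tested. Some abundant subunits of this arm were at the higher mean at day 12: ND-PDSW at 161 and 169, ND-SGDH at 134 and 145, and ND-B15 at 129 and 138. Others were at the lower mean: ND-AGGG, the most abundant of the arm, and ND-B12, at 155 and 152. None of these had an unadjusted p under 0.05. ND-MWFE, at 117 and 119, ND-B14.5B, at 158 and 159.9, and ND-19, at 47.5 and 47.2, were level. The acyl carrier protein ND-ACP, which serves fatty acid synthesis as well as complex I, summed to 278 and 306. ND-MLRQ was level in sum. Its transcript FBtr0070040 was at 43.9 and 35.2 (unadjusted p = 0.0452 according to the authors' deposited table), and this transcript held 8.44% of the gene's value at day 2.

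Complex II, which is also an enzyme of the citric acid cycle, split between its soluble and its membrane subunits. The flavoprotein SdhA, which oxidises succinate, was at 62.0 and 53.5 (log2 change -0.21). The iron-sulfur subunit SdhB was at 57.5 and 48.3 (log2 change -0.25). The membrane anchors were level, SdhC at 75.1 and 75.8 and SdhD at 92.5 and 94.7. All 3 listed transcripts of SdhA were lower by a similar factor, with log2 changes from -0.23 to -0.19. None of the 4 genes had a transcript at an unadjusted p under 0.05 according to the authors' deposited table, so this split is a description of means.

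Complex III showed 4 genes higher and 4 lower. The large core proteins that face the matrix were both lower: UQCR-C1 was at 211 and 183 (log2 change -0.21) and UQCR-C2 at 156 and 134 (log2 change -0.22). Their unadjusted p-values were 0.0528 and 0.0802 according to the authors' deposited table. The small subunit UQCR-6.4 was at 217 and 181 (log2 change -0.26), with an unadjusted p of 0.0597 there. It shares 227 bp of its span with POSH of the opposite strand, which was at 32.6 and 34.9. Of the redox subunits, the Rieske protein RFeSP was at 219.99 and 215, and Cyt-c1 at 111 and 121. UQCR-11, UQCR-14 and UQCR-Q were higher by at most 0.06 on the log2 scale; UQCR-11 was at 403 and 407. The carrier between complexes III and IV, Cyt-c-p, was at 341 and 352. No gene of complex III had a transcript at an unadjusted p under 0.05, and neither did Cyt-c-p.

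The nuclear genes of complex IV stayed close to level. Its 3 core subunits come from the mitochondrial genome, and the nuclear subunits surround them. The log2 changes of the 7 nuclear genes ran from -0.15 to 0.16, with 3 higher and 4 lower. COX8, a small membrane subunit, was at 392 and 353 (unadjusted p = 0.0123 according to the authors' deposited table). COX4 was at 245 and 242 in sum, and its main transcript had an unadjusted p of 0.0307 there at a log2 change of -0.02. COX7A was at 159 and 178, COX7C at 389 and 411, COX5B at 311 and 309, COX6B at 177 and 167, and COX5A at 41.7 and 44.7. COX6B holds CG18809 within its span on the same strand, at 18.8 and 25.4, and the part of this overlap was not tested. COX5A stood apart from the other members of the complex by its level and not by its change.

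**Figure D2:**
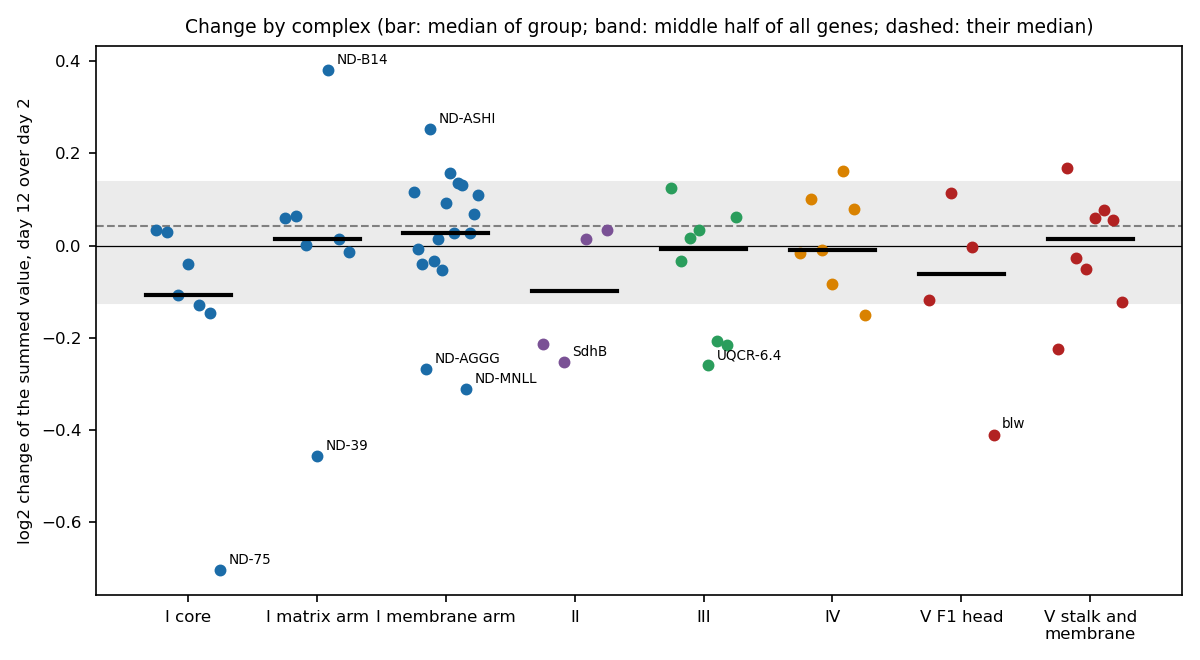
Log2 change of the summed value, day 12 over day 2 (vertical axis), for the genes of each complex or part of it; points are genes, black bars the group medians, the grey band the middle part of all 5954 genes from -0.13 to 0.14 and the dashed line their median of 0.04. ND-MLRQ, ND-ACP and Cyt-c-p are not drawn; ND-75, ND-39 and blw lie lowest and ND-B14 highest.

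In the ATP synthase, 7 of 12 genes were lower at day 12 and 5 higher, and the lower ones included both subunits of the catalytic hexamer. The alpha subunit blw went from 261 to 196, a 1.33-fold lower level (log2 change -0.41). Its unadjusted p was 0.00292 and its adjusted p 0.129 according to the authors' deposited table. The gene spans bases 22799099 to 22802180 of 2R, plus strand. ATPsynbeta, its partner, had a log2 change of -0.12 and an unadjusted p of 0.0927 there. Alpha and beta subunits stand in equal numbers in the enzyme, while the summed value of ATPsynbeta exceeded that of blw at both days. Of the rotor shaft, ATPsyngamma was at 112 on both days and ATPsyndelta at 222 and 240.5.

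In the peripheral stalk, which holds the head in place, ATPsynB and ATPsynO were lower. ATPsynB was at 307 and 263 (log2 change -0.22, unadjusted p = 0.00337) and ATPsynO at 397 and 364 (log2 change -0.12, unadjusted p = 0.00188) according to the authors' deposited table. Their adjusted p-values there were 0.132 and 0.116. The other stalk subunits were close to level: ATPsynD was at 29.2 and 28.2 and ATPsynCF6 at 132 and 129.7. In the membrane part, ATPsynE, ATPsynF and ATPsynG had log2 changes of 0.06, 0.08 and 0.06, and ATPsynC one of 0.17. ATPsynE was at 85.5 and 89.1 and ATPsynF at 263 and 278. ATPsynC holds RNaseP:RNA within its span on the same strand, at 980.4 and 726, and reads from that RNA could be shared with it.

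Across complexes, the genes of long proteins were lower while those of short ones were level. This grouping and its limits were chosen after the values were seen, so it is a description. By the longest annotated protein, 11 members have 300 residues or more, and 10 of them were lower at day 12, with a median log2 change of -0.21. They are ND-75, SdhA, blw, ATPsynbeta, ND-51, UQCR-C1, ND-49, UQCR-C2, ND-39 and ND-42. Cyt-c1, with 307 residues the shortest of the 11, was higher. Just under the limit, SdhB and ATPsyngamma with 297 residues each had log2 changes of -0.25 and -0.00. The 10 genes belong to complexes I, II, III and V; no measured nuclear gene of complex IV is of that size.

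Of 23 members from 150 residues up to that limit, 12 were higher (52.2%), with a median of 0.00. Of 980 other genes of that length in the members' abundance range, 81.0% were higher. Of 31 shorter members 21 were higher (67.7%), with a median of 0.05, against 72.0% of 361 such other genes. The pattern was present inside and outside complex I: all 5 long genes of complex I were lower, and 5 of 6 of the others.

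A relation of the same sign ran through the whole table. Among other genes in the abundance range of the members, the median log2 change was 0.08 under 150 residues, 0.10 from there to 300 and 0.04 from 300 up, which is no steady fall with length. In the last class, 1239 of 2952 genes were lower. Spearman's rho between protein length and log2 change was -0.33 over the 65 members, -0.30 over 5716 genes of the table and -0.26 over 4293 other genes in that range, as a description across genes that share the same libraries. Within complex I it was -0.26 over 33 genes. Short and long members also differ in other respects, since rho between protein length and level was -0.27 in the members. Whether length, role or level goes along with the change was not tested.

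**Figure D3:**
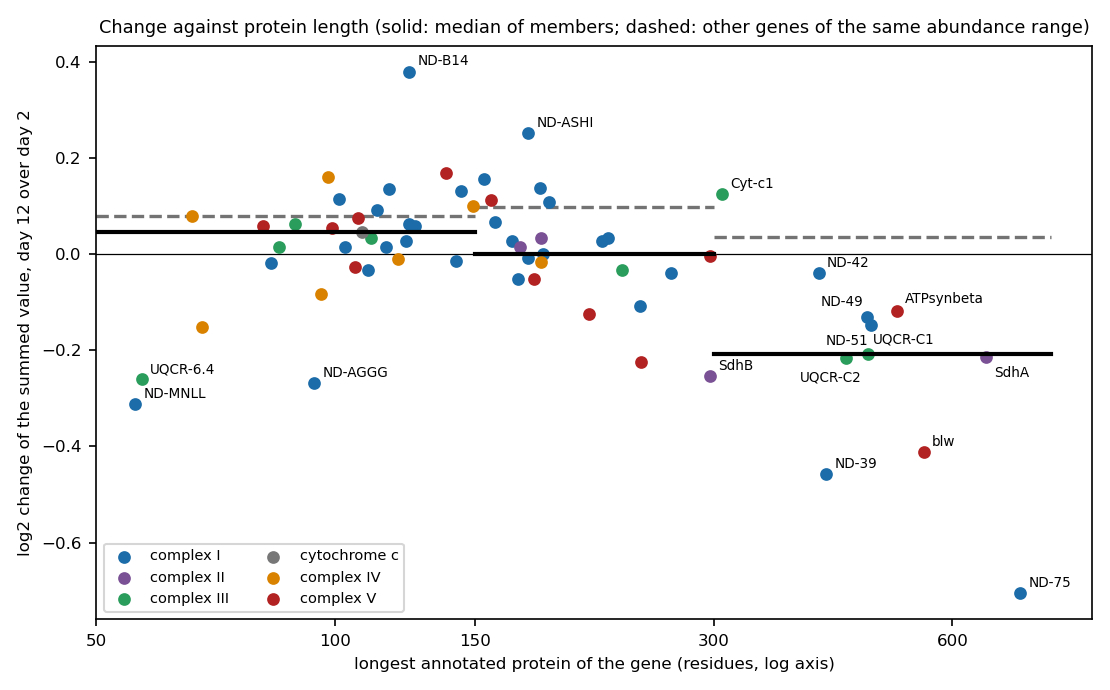
Log2 change of the summed value, day 12 over day 2 (vertical axis), against the longest annotated protein of each gene (horizontal log axis, residues), coloured by complex. Solid lines are the members' medians in 3 length classes (0.05, 0.00 and -0.21) and dashed lines those of other genes of the same abundance range (0.08, 0.10 and 0.04); of the genes from 300 residues up, Cyt-c1 alone lies above 0.

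Listed transcripts of a gene moved apart in some members. Of the 65 genes, 37 had 1 listed transcript and 28 had several. In 17 of these 28 the transcripts differed in direction, against 68.2% of all genes with several. The share of a gene's value that passed from one set of its transcripts to another between days had a median of 2.39% in the members and 6.30% in all such genes. It exceeded 10% in 4 members, ND-ASHI, ND-AGGG, ATPsynCF6 and ND-B12, and in 38.6% of all such genes. None of the transcripts of these 4 genes had an unadjusted p under 0.05 according to the authors' deposited table.

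For ND-AGGG, of the membrane arm, 1 transcript held nearly all of the value at day 2. This transcript, FBtr0339924, has 445 nt, with 68 nt after the stop codon, and went from 293 to 203. FBtr0113773, which has the same protein of 94 residues and 368 nt after the stop codon, went from 3.56 to 17.1. Transcripts that the authors assembled went from 1.73 to 18.3 and from 1.54 to 10.4. The share of FBtr0339924 was 97.7% at day 2 and 81.6% at day 12. The gene summed to 299.7 and 249, so the lower sum came with a shift of the value towards other listed forms. The unadjusted p of the main transcript was 0.381 according to the authors' deposited table.

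ND-B12 and ATPsynCF6 shifted while their sums were level. For ND-B12, of the membrane arm, FBtr0300680 went from 83.7 to 60.5 and FBtr0300679 from 31.8 to 46.2, with a sum of 155 and 152. These transcripts code for the same 110 residues and differ before the start codon, with 39 nt against 159 nt. For ATPsynCF6, FBtr0084432 went from 71.8 to 90.3 and FBtr0333777 from 48.4 to 28.8. They share the protein of 106 residues and have 121 nt and 181 nt after the stop codon. In both genes the protein named by the annotation is the same whichever transcript was counted.

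ND-ASHI had 9 listed transcripts, each at or under 8.01 on both days, and 7 of them were assembled by the authors. An assembled transcript went from 2.19 to 8.01 and the annotated FBtr0343330 from 2.52 to 6.22, while TCONS_00015439 went from 3.53 to 0.316 and TCONS_00015443 from 1.95 to a listed 0. The gene shares 695 bp with Fum1 of the opposite strand, which was at 140.4 on day 2 and 141 on day 12. The sources used here do not say whether the counting used strand, and the part of this overlap in the values of ND-ASHI was not tested.

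ND-ACP and COX6B have forms with different proteins. For ND-ACP the annotated forms of 143 and 152 residues were both higher at day 12, going from 141 to 154 and from 132 to 152. A longer form of 181 residues went from 5.36 to 0.0674, with an unadjusted p of 0.354 according to the authors' deposited table. For COX6B the form of 96 residues went from 8.95 to 1.04 (unadjusted p = 0.253 there), while the main form of 77 residues was at 149.8 and 153. In both genes the minor form was near 0 at day 12, and the difference did not pass.

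**Figure D4:**
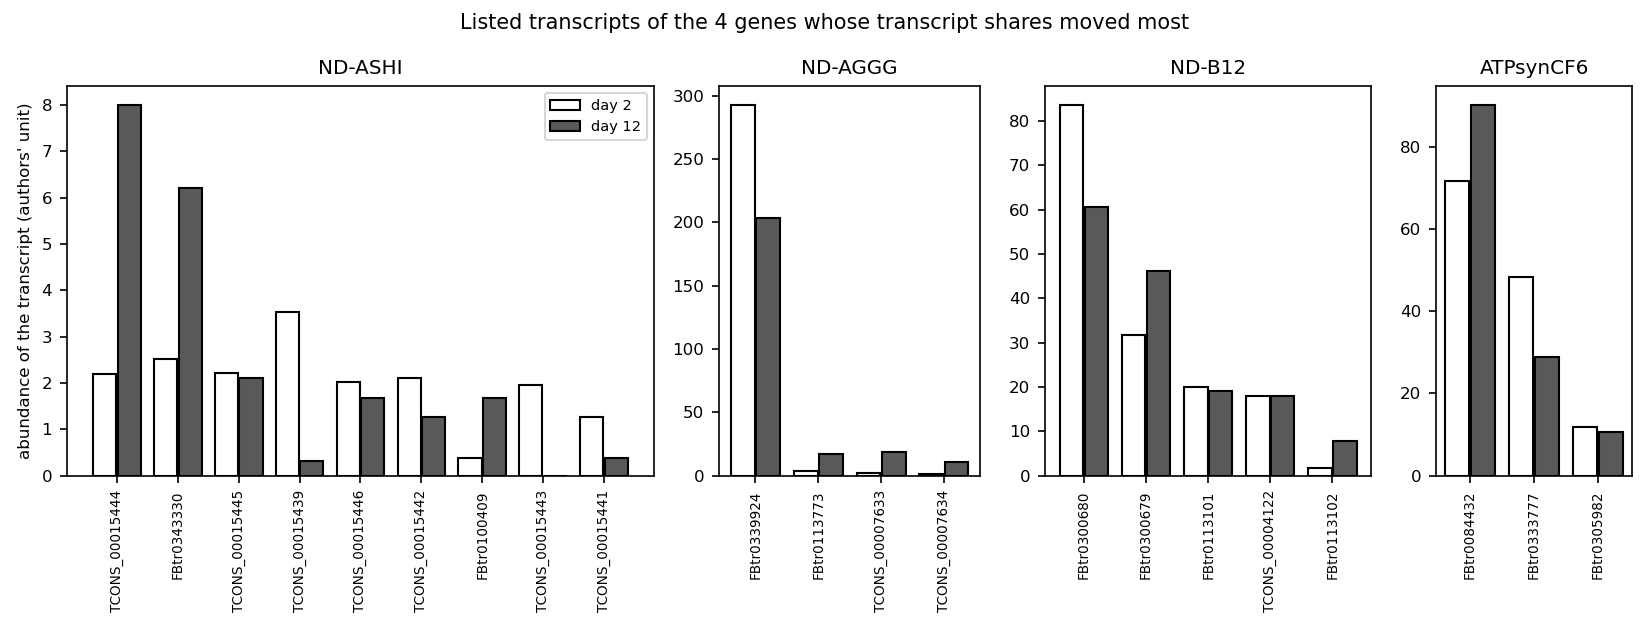
Abundance in the authors' unit (vertical axes, from 0, scaled separately for each gene) of each listed transcript of ND-ASHI, ND-AGGG, ND-B12 and ATPsynCF6 at day 2 (white bars) and day 12 (grey bars); each bar is 1 mean over 3 libraries, with no error bar. In ND-AGGG the main transcript is lower at day 12 and the 3 others higher.

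Messages from the mitochondrial genome stood apart from the nuclear ones of the same complexes by direction. All 4 measured in complex I, the 1 in complex III and all 3 in complex IV were lower at day 12, with log2 changes from -0.33 for mt:ND1 to -1.21 for mt:CoIII. Of the nuclear genes, 14 of 33 were lower in complex I, 4 of 8 in complex III and 4 of 7 in complex IV. In complex V, mt:ATPase6 and mt:ATPase8 were higher, at log2 changes of 3.81 and 0.57, while 7 of 12 nuclear genes were lower. Their levels were far apart, with mt:ATPase6 at 201 and 2821 and mt:ATPase8 at 9.67 and 14.3. The sources used here do not say how reads were divided among mitochondrial genes, and the part of this in the 2 values was not tested. By the authors' deposited table, 9 of these 10 messages, mt:ND1 being the exception, had an unadjusted p under 0.05 and 0 an adjusted p under 0.05. Of all listed transcripts, 16% had such an unadjusted p and 0.177% such an adjusted p. By direction, 41.5% of all genes were lower at day 12.

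Subunits that carry other symbols stand outside the rule. These are levy and cype of complex IV, NP15.6 of complex I, sun of complex V and ox of complex III, and their log2 changes ran from -0.24 for ox to 0.02 for cype. With them, 35 of 70 genes were higher and 35 lower. The RefSeq gene table names 24 further genes with a member's symbol followed by L, as given to paralogs; 0 of these were listed in the linear RNA table.

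Genes that serve the respiratory chain without being its subunits were mostly level as well, and none had an adjusted p under 0.05 for its most abundant transcript according to the authors' deposited table. For this and the following lists, 58.5% of all genes were higher at day 12, and 25.3% had any transcript at an unadjusted p under 0.05 there. The share of all genes by the most abundant transcript was not computed. With any transcript at an unadjusted p under 0.05 there were 3 of 12 assembly factors and 6 of 16 citric acid cycle genes. So were 2 of 9 genes of other electron inputs and ubiquinone synthesis and 2 of 5 carriers and pores. Of the genes that copy and transcribe the mitochondrial genome or handle its RNA it was 1 of 10, and of regulators 3 of 11. Differences of these small lists from the whole table were not tested. Of 12 measured assembly factors 11 were higher, with a median log2 change of 0.10. By the most abundant transcript, 2 of the 12 were higher and 1 lower at an unadjusted p under 0.05. CG9065, the copper chaperone Cox17, had the largest change, from 27.7 to 31.9. Of 16 citric acid cycle genes, 10 were higher and 6 lower, with a median of 0.01 and with 1 higher and 3 lower at that p. Nc73EF, of the 2-oxoglutarate dehydrogenase complex, had the largest change, from 10.9 to 8.92.

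Of 9 genes of other electron inputs and ubiquinone synthesis, 5 were higher and 4 lower, with a median of 0.02. None was higher and 2 were lower at an unadjusted p under 0.05, and CG9249, the Coq3 enzyme, was at 19.5 and 16.7. Of 5 membrane carriers and pores 4 were higher, with a median of 0.05, and 2 of them at that p; Mpc1, of the pyruvate carrier, was at 33.8 and 38.5. Of 10 genes that copy and transcribe the mitochondrial genome or handle its RNA, 5 were higher and 5 lower, with a median of -0.03 and 1 lower at that p. This was Lrpprc2, a protein of mitochondrial RNA metabolism, from 5.98 to 3.10 (unadjusted p = 0.00487 according to the authors' deposited table).

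Among 11 regulators, 8 were higher and 3 lower, with a median of 0.10; at an unadjusted p under 0.05, 2 were higher and 1 lower. The ubiquitin ligase park, which marks damaged mitochondria, went from 8.59 to 2.93 (unadjusted p = 0.00295, adjusted p = 0.129 according to the authors' deposited table). The PGC-1 homologue srl went from 146 to 169 (unadjusted p = 0.0390 there). The outer membrane protein spoon, known as mdi, which recruits messages of mitochondrial proteins for local translation, went from 126 to 152 (unadjusted p = 0.00328 there). The homologue of NRF-1, ewg, was at 12.6 and 13.1.

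Beyond their function, the members were short genes by their medians, though ND-75, SdhA and blw have transcripts above the median length of all genes. The longest annotated protein had a median of 157 residues, against 442 for all listed protein-coding genes. The most abundant transcript had a median length of 656 nt and 3 exons, against 1803 nt and 4 exons, with 99 nt against 219 nt after the stop codon. The genes were spread over all major arms, with 13 on 2L, 12 on 2R, 13 on 3L, 13 on 3R and 12 on X. On chromosome 4, which holds 46 listed genes, lie 2 members, ND-49 and ATPsynbeta. Of the 65 genes, 36 overlap another annotated feature, 9 on the same strand. Such features include transposable elements and noncoding RNAs, and the overlap was only 4 bp for UQCR-C2 and ATPsynF. The share of all listed genes with an overlap was not computed. The 71 genes of mitochondrial ribosomal proteins, which are also nuclear genes of imported mitochondrial proteins, had a median log2 change of 0.04, with 46 higher and 25 lower.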

How the data were processed

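Sample titles gave the groups. Build dm6 and the tools STAR, HISAT2, DESeq2 and StringTie are named per the submitters' processing notes, with versions and roles not given in the sources used here. As linear RNA data, the authors deposited 1 signal value per transcript and day, a mean of 3 libraries in a unit that is not stated, and a p-value and adjusted p-value per transcript. A Benjamini-Hochberg adjustment over all 10162 transcripts returned the deposited adjusted p-values. No p-value was recomputed. Because the values are means, no test on counts or across libraries was made, and each p-value took its direction from which mean was larger.

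For each gene and day the listed transcripts were added up, and the log2 ratio of these sums was taken without a pseudocount (pandas 2.3.3, SciPy 1.17.1); the summing was tested on simulated data. Complex and role follow the subunit name. Lengths and coordinates come from Ensembl release 115 of BDGP6 (dm6 coordinates); 106 of the 121 member transcripts were found there and the other 15 are the authors' own assemblies. Members and lists were chosen with earlier results of these data known. The planned rule described in full members at an unadjusted p under 0.05, with a change of at least 0.5, in a catalytic core, at either end of the levels of a complex, or with transcripts that move apart (of 17 such members, those with a shift over 10% and the few with different proteins or a low p); of other genes it named mitochondrial subunits and the gene of each list with the largest change. Of the lists, srl, spoon and ewg were named outside that rule, after their values were seen. The symbol dhd was dropped from a list, being that of a thioredoxin. Sequences and the planned promoter motifs were not used here, and neither was the circRNA table, which names no host genes.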

Additional observations from a re-analysis of the deposited data

How the results depend on the processing

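No paired analysis was possible because the table holds 1 mean per day and no value of a single library; for the same reason no library could be left out. Centred on the median of all genes, the median log2 change of the members was -0.0286 in place of 0.01. With an adjusted p under 0.05 in place of the unadjusted p, 0 of the 14 members with a low p remained. Leaving out members that overlap another annotated feature, chosen after seeing the data, left 13 of 29 genes higher at day 12. It left 4 of 5 long genes lower, and fewer genes stand behind these counts. The number of members higher at day 12 was otherwise between 23 and 39 in 9 alternatives; the filter on a mean of at least 100 left 44 genes with 23 higher. Some of these could not change the count. A pseudocount of 1 keeps each sign, every member has a mean above 10, and no assembly factor or paralog was among the members to leave out. Of the genes with long proteins, 10 of 11 were lower with the most abundant transcript, with annotated transcripts only and with either other scaling. The choice of transcripts could not change this count, since every listed transcript of the 10 genes was lower and Cyt-c1 has only 1. Both other scalings move every log2 change downward, so neither could make a lower gene higher. With other length limits, 13 of 14 were lower from 250 residues up and 10 of 10 from 400 up. The unit, the depth and the spread between libraries are unknown, so small differences cannot be placed against the error.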
